A study of Mus musculus with 9 samples.

Results

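The genes described here mark the earliest neurons of the cortical wall. *Reln*, *Trp73*, *Calb2*, *Lhx1*, *Lhx5*, *Ebf2* and *Ebf3* are known as genes of Cajal-Retzius cells, and *Nr4a2*, *Cplx3* and *Nxph4* as genes of subplate neurons. They were chosen by name, and 9 of the 10 are listed among the 14670 genes measured. *Cplx3*, which encodes a complexin, has no row among the genes used here.

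The 9 RNA-seq libraries came from cerebral cortex of mice at E16.5 (embryonic day 16.5). There were 3 libraries from *Fzd3* -/- embryos, numbered 1, 2 and 3, 3 from *Celsr3* -/- embryos, numbered 1, 2 and 4, and 3 from controls, numbered 1, 2 and 3. The controls are labelled +/+, whereas the methods describe control mice as littermates that were heterozygous or wild type, and both mutant lines are on a mixed background of C57Bl/6 and CD1. Exon 3 is missing from the mutant *Fzd3* allele, and each gene has 1 value, so that deletion could not be read from the values. The methods give tissue from 3 of each genotype and at least 3 animals per animal experiment, and no source assigns libraries to embryos or litters, so p values measure the spread between these samples.

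Cajal-Retzius cells lie in the marginal zone at the surface of the cortex and secrete Reelin, the product of *Reln*, which binds receptors on migrating neurons and acts through the adaptor encoded by *Dab1*. Most of them arise at the borders of the cortical sheet, among them the cortical hem, and spread over its surface. Subplate neurons lie beneath the cortical plate, are among the first neurons to be born, and are known for their part in guiding axons between the cortex and the thalamus.

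Levels are given as CPM, the reads on a gene scaled to the size of the library. The values of each library were whole multiples of a single step within a tolerance of 0.1 reads (100% of them). The files do not state that 1 step is 1 read. If it is, the controls held 52266343, 61637621 and 39857305 reads on listed genes, the *Fzd3* mutants 42963627, 45848829 and 52249430, and the *Celsr3* mutants 60333846, 54974978 and 69600589. On the same reading a level of 3 reads, which covers counting error only, lay between 0.0427 and 0.0752 CPM, and each listed member was above it in every library. Differences were tested with limma on log2(CPM + 0.5), where 0.5 CPM is a pseudocount that keeps low values finite and understates the change of genes with low levels. P values were adjusted over all 14670 genes with a threshold of 0.05.

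As a check of the genotypes, the genes that carry the mutations are given before the members. *Celsr3* stood at 196, 243 and 214 CPM in controls, 253, 213 and 255 in the *Fzd3* mutants and 122, 139 and 118 in the *Celsr3* mutants. The *Celsr3* mutant libraries lay below all others, and the log2 fold change against controls was -0.78 (standard error 0.0910, limma adjusted p = 0.0018, and 0.00158 to 0.0699 over 14 alternative fits, the highest with the replicate number as a block), and -0.73 without *Celsr3* mutant library 4 (limma adjusted p = 0.0119). *Fzd3* was at 58.0, 67.7 and 46.9 CPM in controls and at 46.5, 39.8 and 59.6 in *Fzd3* mutants. These ranges overlapped (log2 fold change -0.24, limma adjusted p = 0.24), so over all libraries *Fzd3* mRNA does not tell those labelled *Fzd3* mutant from controls. Over the alternatives the log2 fold change was -0.40 to -0.11 with adjusted p values of 0.0457 to 0.633, the lowest without *Fzd3* mutant library 3.

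*Celsr3* mutant library 4 stood apart in markers of the meninges, the membranes that cover the cortex and adjoin the marginal zone. Of 15 such markers 8 are listed, and their summed level was 59.0, 64.9 and 60.0 CPM in controls, 85.4, 81.2 and 72.0 in the *Fzd3* mutants and 66.1, 59.9 and 290 in the *Celsr3* mutants. *Col3a1*, a fibrillar collagen, was at 87.6 CPM in this library and at most at 6.86 CPM in any other, and *Igf2*, the most abundant of the listed meninges markers, was at 65.9 CPM against 22.1 to 35.1. *Lum*, *Foxc2*, *Aldh1a2*, *Slc6a13*, *Crabp2*, *Twist1* and *Foxd1* have no row. *Col3a1* was singled out after its values were seen. Fold changes of members that involve the *Celsr3* mutants are therefore also given without this library, as are counts for part of the gene lists.

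*Reln* had the highest mean level of the listed members, by CPM and per kb of exon, in each genotype. It was at 465, 504 and 472 CPM in controls, 514, 446 and 651 in the *Fzd3* mutants and 461, 470 and 371 in the *Celsr3* mutants. *Fzd3* mutant library 3 was the highest of the 9 libraries and *Celsr3* mutant library 4 the lowest, and the 3 genotypes overlapped. Means were 480 ± 20.6, 537 ± 104 and 434 ± 55.1 CPM (s.d., n = 3 each). In bulk tissue, fewer cells of a type and less RNA per cell cannot be told apart. The log2 fold change was 0.14 in *Fzd3* mutants against controls (95% interval -0.12 to 0.41, limma adjusted p = 0.405, and 0.12 to 0.987 over the alternatives). Without *Fzd3* mutant library 3 it was -0.0028. In *Celsr3* mutants it was -0.15 (limma adjusted p = 1) and -0.04 without library 4. Between the mutants it was 0.30 (0.03 to 0.56, limma adjusted p = 0.0881) and 0.19 without *Celsr3* mutant library 4. That comparison passed the threshold without *Fzd3* mutant library 2, with a log2 fold change of 0.42 (limma adjusted p = 0.0263, and up to 0.526 over the alternatives). *Reln* is listed as XLOC_025268 and lies on the minus strand at chr5:21884454-22344702 of GRCm38, where 4 annotated genes overlap it on the opposite strand. The overlap was taken over the whole gene span, introns included. The use of strand in counting is not given in the sources used here. Whether reads from these partners enter the *Reln* value is therefore not known. *Gm10475*, among these partners, has its own row, with means of 10.4, 12.3 and 9.50 CPM in controls, *Fzd3* mutants and *Celsr3* mutants.

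*Trp73* encodes a transcription factor of the p53 family on which Cajal-Retzius cells depend. It was at 13.4, 14.7 and 15.0 CPM in controls, 17.1, 14.7 and 20.6 in the *Fzd3* mutants and 13.4, 14.8 and 13.4 in the *Celsr3* mutants. As for *Reln*, *Fzd3* mutant library 3 was the highest, but library 2 of that genotype lay within the controls. The log2 fold change in *Fzd3* mutants was 0.26 (standard error 0.111, limma adjusted p = 0.1), and it passed the threshold without *Fzd3* mutant library 2 (0.37, limma adjusted p = 0.0272) and was 0.14 without library 3 (limma adjusted p = 0.314, the highest over the alternatives). In *Celsr3* mutants it was -0.05 (limma adjusted p = 1), and -0.03 without library 4. Between the mutants it was 0.31 (limma adjusted p = 0.0533), 0.29 without *Celsr3* mutant library 4, and 0.43 without *Fzd3* mutant library 2 (limma adjusted p = 0.0166, the lowest of a range up to 0.277), and 0.19 without *Fzd3* mutant library 3. With all libraries rescaled to the same sum, this comparison passed at an adjusted p of 0.0494. Within each library the ratio of *Reln* to *Trp73* CPM, not corrected for length, lay between 27.7 and 34.7. *Trp73* is XLOC_024158 at chr4:154056253-154140208, minus strand, and 2 annotated genes overlap its span on the opposite strand. Whether their reads enter the *Trp73* value is likewise not known.

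*Calb2*, which encodes the calcium-binding protein calretinin, marks Cajal-Retzius cells and also some GABAergic interneurons. It was at 6.67, 7.36 and 8.0 CPM in controls, 7.20, 11.0 and 13.3 in the *Fzd3* mutants and 5.81, 6.26 and 4.76 in the *Celsr3* mutants. The libraries of the mutants did not overlap with each other, and the 3 *Celsr3* mutant libraries also lay below the controls, whereas *Fzd3* mutant library 1 lay among the controls. *Calb2* was higher in *Fzd3* than in *Celsr3* mutants by a log2 fold change of 0.81 (95% interval 0.41 to 1.22, limma adjusted p = 0.00738), a ratio of means of 1.87. Without *Celsr3* mutant library 4 this was 0.71 (limma adjusted p = 0.0311), and over all 14 alternatives it ranged from 0.59 to 1.05 with adjusted p values from 0.0014 to 0.0421. Against controls, the log2 fold change was 0.45 in *Fzd3* mutants (limma adjusted p = 0.0906). It was 0.68 without *Fzd3* mutant library 1 (limma adjusted p = 0.00877) and 0.26 without library 3 (limma adjusted p = 0.28), which are the ends of the range over the alternatives. With the replicate number as a block that adjusted p was 0.0414. In *Celsr3* mutants the log2 fold change against controls was -0.36 (limma adjusted p = 0.947), and -0.26 without library 4. *Calb2* is XLOC_032702 at chr8:110137502-110168210, minus strand, with 0 annotated genes on the opposite strand.

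Of 17 markers of GABAergic neurons, 8 were higher in *Fzd3* than in *Celsr3* mutants and 0 lower, also 0 lower at an unadjusted p under 0.05 (limma, adjusted over all genes), where 15.3% of all genes were higher and 14.3% lower. The number higher was 3 without *Celsr3* mutant library 4, and 21.4% of all genes then passed in either direction. Their summed level was 439, 447 and 484 CPM in controls, 605, 556 and 482 in the *Fzd3* mutants and 458, 403 and 369 in the *Celsr3* mutants. The *Fzd3* mutant library with the highest *Calb2* had the lowest sum of its genotype. The most abundant marker of this list was *Dlx1*, and all 17 are listed. Their part in the *Calb2* difference was not tested.

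**Figure D1:**
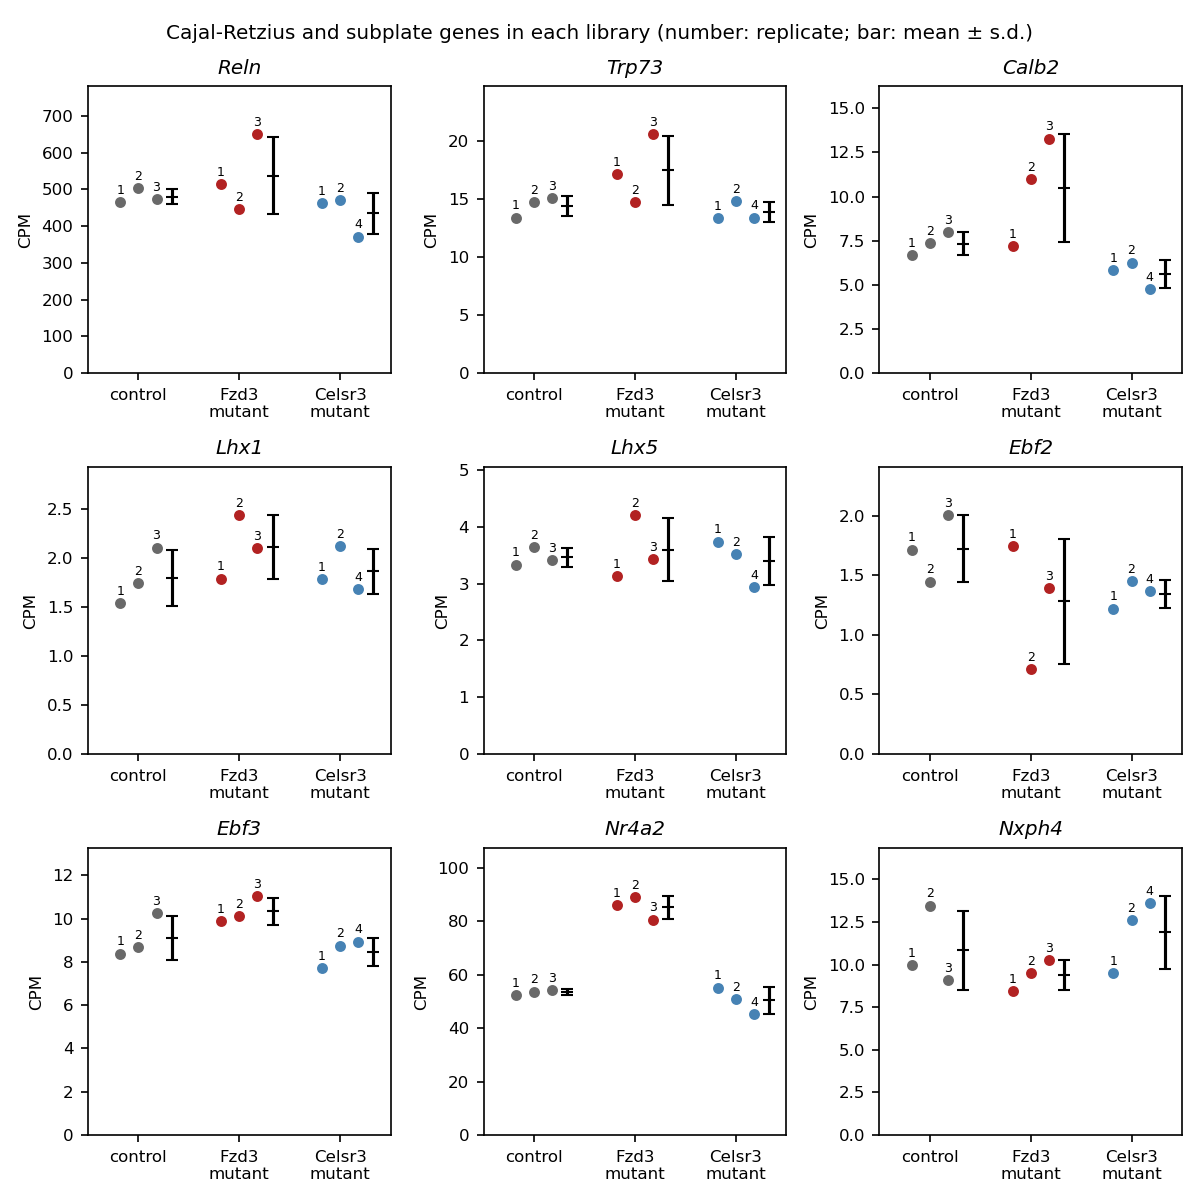
CPM (y axis) of each listed gene by genotype (x axis), with 1 numbered point per library and a bar for the mean ± s.d. of 3 libraries. *Nr4a2* lies between 80.6 and 89.0 CPM in *Fzd3* mutants and at most at 55.1 CPM elsewhere, whereas the *Reln* libraries of the 3 genotypes overlap.

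*Lhx1* and *Lhx5* encode LIM homeodomain transcription factors of Cajal-Retzius cells and of other early brain regions. *Lhx1* was at 1.54, 1.74 and 2.11 CPM in controls, 1.79, 2.44 and 2.1 in the *Fzd3* mutants and 1.79, 2.1 and 1.68 in the *Celsr3* mutants. *Lhx5* was at 3.33, 3.65 and 3.41 CPM in controls, 3.14, 4.21 and 3.44 in the *Fzd3* mutants and 3.74, 3.52 and 2.93 in the *Celsr3* mutants. In both genes *Fzd3* mutant library 2 was the highest of the 9 libraries, and the genotypes overlapped. For *Lhx1* the log2 fold changes were 0.18 in the *Fzd3* mutants and 0.04 in the *Celsr3* mutants (limma adjusted p = 0.4 and 1), and 0.14 between the mutants. Without *Celsr3* mutant library 4 the last 2 were 0.10 and 0.08. The value for *Celsr3* mutants was -0.03 without *Celsr3* mutant library 2 and -0.04 without control library 1. Without *Fzd3* mutant library 2 the value for *Fzd3* mutants was 0.09 and that between the mutants 0.05. For *Lhx5* the log2 fold changes were 0.04 and -0.03 against controls (limma adjusted p = 0.854 and 1), and 0.07 between the mutants. The direction of each *Lhx5* difference turned on single libraries. Without *Fzd3* mutant library 2 the difference of *Fzd3* mutants from controls was -0.07 and that from *Celsr3* mutants -0.04. Without *Celsr3* mutant library 4 the difference of *Celsr3* mutants from controls was 0.06 and that between the mutants -0.02, and without control library 2 the former was 0.0039. *Lhx1* is XLOC_005736 at chr11:84518284-84525535, minus strand, and *Lhx5* is XLOC_024903 at chr5:120431699-120441223, plus strand, where 1 annotated gene overlaps it on the opposite strand.

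*Ebf2* and *Ebf3* encode related transcription factors of the early B cell factor family. *Ebf2* had the lowest mean level of the listed members, by CPM and per kb of exon, at 1.71, 1.45 and 2.01 CPM in controls, 1.74, 0.713 and 1.39 in the *Fzd3* mutants and 1.22, 1.45 and 1.37 in the *Celsr3* mutants. *Fzd3* mutant library 2 was the lowest of all 9, whereas library 1 of that genotype lay within the controls. The log2 fold changes of *Ebf2* were -0.36 in the *Fzd3* and -0.26 in the *Celsr3* mutants against controls (limma adjusted p = 0.237 and 1). The former was -0.10 without *Fzd3* mutant library 2 and -0.54 without library 1, and the latter -0.27 without *Celsr3* mutant library 4. Between the mutants the value was -0.09, also without *Celsr3* mutant library 4, and 0.16 without *Fzd3* mutant library 2. *Ebf3* was at 8.38, 8.67 and 10.3 CPM in controls, 9.87, 10.1 and 11.1 in the *Fzd3* mutants and 7.72, 8.74 and 8.94 in the *Celsr3* mutants. The *Ebf3* libraries of the mutants did not overlap with each other, and those of the controls overlapped with both. For *Ebf3* the log2 fold changes were 0.18 and -0.10 against controls (limma adjusted p = 0.207 and 1). The latter was -0.13 without *Celsr3* mutant library 4 and -0.01 without control library 3. Between the mutants the value was 0.28 (limma adjusted p = 0.0609), and 0.31 without *Celsr3* mutant library 4 (limma adjusted p = 0.0778, within a range of 0.0525 to 0.178 over the alternatives). Over the whole gene span, introns included, *Ebf2* (XLOC_009727, chr14:67233292-67430918, plus strand) and *Ebf3* (XLOC_031153, chr7:137193673-137314445, minus strand) are overlapped by 5 and 2 annotated genes on the opposite strand. Whether reads from those genes enter the *Ebf2* and *Ebf3* values is not known.

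*Nr4a2*, also known as Nurr1, encodes an orphan nuclear receptor that marks subplate neurons. It was at 52.2, 53.7 and 54.3 CPM in controls, 86.0, 89.0 and 80.6 in the *Fzd3* mutants and 55.1, 50.9 and 45.1 in the *Celsr3* mutants. Every *Fzd3* mutant library lay above every other library, and *Celsr3* mutant library 4 was the lowest. *Nr4a2* rose in *Fzd3* mutants by a log2 fold change of 0.67 (standard error 0.0681, 95% interval 0.52 to 0.82, limma adjusted p = 7.3e-05), with means of 53.4 ± 1.05 and 85.2 ± 4.29 CPM (s.d., n = 3 each). The mean was 59.5% higher, and 93.2% of the 14670 genes had a smaller absolute log2 fold change in that comparison. In *Celsr3* mutants the log2 fold change was -0.09 (limma adjusted p = 1), and -0.01 without library 4. The difference between the mutants was 0.76 (0.61 to 0.91, limma adjusted p = 4.21e-05), and 0.68 without *Celsr3* mutant library 4. Both differences of the *Fzd3* mutants passed the threshold in each of the 14 alternatives, with log2 fold changes of 0.64 to 0.71 against controls and 0.68 to 0.82 against *Celsr3* mutants. *Nr4a2* is XLOC_018481 at chr2:57106830-57124003, minus strand, with 0 annotated genes on the opposite strand.

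*Nr4a2* belongs to a family of 3 receptors, and its relatives *Nr4a1* and *Nr4a3* are known as genes induced by cyclic AMP and by neuronal activity. *Nr4a3* was at 60.3, 59.2 and 52.0 CPM in controls, 68.1, 73.7 and 74.9 in the *Fzd3* mutants and 43.3, 53.9 and 50.2 in the *Celsr3* mutants. All *Fzd3* mutant libraries were above all others, and *Nr4a3* rose in these mutants by a log2 fold change of 0.34 against controls (standard error 0.0823, limma adjusted p = 0.0106). *Nr4a1* had means of 3.74 ± 0.510, 4.03 ± 0.553 and 3.83 ± 0.293 CPM in controls, *Fzd3* mutants and *Celsr3* mutants (s.d., n = 3 each). Its log2 fold change in *Fzd3* mutants was 0.09 (limma adjusted p = 0.633).

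The promoters of the family are shown because *Nr4a2* and *Nr4a3* rose together in *Fzd3* mutants while *Nr4a1* did not pass the test. Each is the 250 bases before the RefSeq transcript start in GRCm38.p6, written 5′ to 3′ on the strand of the gene, and 6 of the 10 members (*Reln*, *Trp73*, *Lhx1*, *Ebf3*, *Nr4a2* and *Cplx3*) have such an entry. *Calb2*, *Lhx5*, *Ebf2* and *Nxph4* have none. Capitals mark TGACG, the half-site of the cyclic AMP response element, searched on both strands, where it reads CGTCA on the other strand. The *Nr4a2* sequence is chr2:57124004-57124253 on the minus strand, that of *Nr4a3* is chr4:48045055-48045304 on the plus strand and that of *Nr4a1* is chr15:101266596-101266845 on the plus strand.
Nr4a2: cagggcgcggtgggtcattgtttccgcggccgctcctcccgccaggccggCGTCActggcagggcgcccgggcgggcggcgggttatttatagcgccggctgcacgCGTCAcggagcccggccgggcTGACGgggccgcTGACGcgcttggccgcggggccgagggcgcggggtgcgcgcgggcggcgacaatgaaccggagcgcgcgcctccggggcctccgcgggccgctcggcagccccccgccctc
Nr4a3: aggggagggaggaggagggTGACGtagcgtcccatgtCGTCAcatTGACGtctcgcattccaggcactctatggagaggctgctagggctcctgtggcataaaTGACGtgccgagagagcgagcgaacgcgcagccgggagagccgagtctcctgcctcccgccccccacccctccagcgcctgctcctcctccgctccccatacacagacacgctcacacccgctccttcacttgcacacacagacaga
Nr4a1: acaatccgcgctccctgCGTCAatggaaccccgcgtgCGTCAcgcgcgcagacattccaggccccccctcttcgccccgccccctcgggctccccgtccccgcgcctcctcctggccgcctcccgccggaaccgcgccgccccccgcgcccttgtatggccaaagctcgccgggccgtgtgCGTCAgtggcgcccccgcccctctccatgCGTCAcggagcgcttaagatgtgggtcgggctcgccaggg
Each of the 3 sequences holds the half-site 4 times. Of 32851 promoter windows of the same length (27025 genes), 17.8% hold it at least once and 0.137% hold it 4 or more times. *Ebf3* has 2 and *Lhx1* 1, and the windows of *Reln*, *Trp73* and *Cplx3* have 0. The full element TGACGTCA, which contains the half-site on both strands, is in 1.55% of windows, the response element of the family itself, AAAGGTCA, in 1.34%, and the homeodomain core TAATTA in 4.84%, and these have 0 matches in the windows of the members and of *Nr4a1* and *Nr4a3*. A match describes letters in the window, and 0 matches says only that these letters are not there.

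*Nxph4* encodes a neurexophilin, a secreted protein of a family that binds neurexins, and is known from subplate neurons. It was at 9.98, 13.4 and 9.08 CPM in controls, 8.45, 9.48 and 10.3 in the *Fzd3* mutants and 9.49, 12.6 and 13.6 in the *Celsr3* mutants. The genotypes overlapped, and *Celsr3* mutant library 4, the lowest library for *Nr4a2*, was the highest for *Nxph4*. The log2 fold change was -0.18 in *Fzd3* mutants (limma adjusted p = 0.421), or -0.02 without control library 2, and 0.13 in *Celsr3* mutants (limma adjusted p = 1), or 0.03 without library 4. The value for *Celsr3* mutants was 0.28 without *Celsr3* mutant library 1 and 0.29 without control library 2. Between the mutants the log2 fold change was -0.31 (limma adjusted p = 0.159) and -0.21 without *Celsr3* mutant library 4 (limma adjusted p = 0.408). Without *Celsr3* mutant library 1 it was -0.46 and passed the threshold (limma adjusted p = 0.0479, the lowest of a range up to 0.432). *Nxph4* is XLOC_003396 at chr10:127525473-127534559, minus strand, with 0 annotated genes on the opposite strand.

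Levels of different genes were compared as CPM per kb of annotated exon. In controls, on this scale, the order was *Reln* (20.2 ± 0.868), *Nr4a2* (13.2 ± 0.259), *Nxph4* (6.47 ± 1.38), *Calb2* (4.21 ± 0.383), *Trp73* (2.60 ± 0.159), *Lhx5* (1.29 ± 0.0605), *Ebf3* (0.987 ± 0.110), *Lhx1* (0.441 ± 0.0704) and *Ebf2* (0.249 ± 0.0405; CPM per kb, s.d., n = 3 each). The libraries of neighbours in this order did not overlap in any of the 8 pairs, and the same was true of the 8 pairs in *Celsr3* mutants. In *Fzd3* mutants, 3 pairs of neighbours overlapped. *Reln* (22.6 ± 4.39 CPM per kb) and *Nr4a2* (21.0 ± 1.06) did not differ there beyond the spread between libraries, nor did *Calb2* (6.02 ± 1.76) and *Nxph4* (5.61), whose means had changed places, nor *Lhx5* (1.34) and *Ebf3* (1.12). By CPM alone, *Reln* and *Nr4a2* were also the top pair in controls, but *Trp73* ranked 3, *Nxph4* 4, *Ebf3* 5, *Calb2* 6 and *Lhx5* 7.

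Side by side, 1 of the 9 listed members passed the threshold in *Fzd3* mutants against controls, and it was higher. Of all 14670 genes, 29.8% passed in that comparison, 15.0% of them upward and 14.8% downward as shares of all genes. The members' estimates were above 0 for 7 and below 0 for 2, with a median log2 fold change of 0.18 against -0.00056 over all genes, and 3 members, against 41.4% of all genes, had an unadjusted p under 0.05. In *Celsr3* mutants against controls limma called 0 members, with 0 at an unadjusted p under 0.05 (5.45% of all genes) and 0 in each of the 14 alternatives. Of all genes, 0.307% passed there, 0.130% higher and 0.177% lower. The members' estimates were above 0 for 2 and below 0 for 7, with a median of -0.09 against -0.0022 over all genes. Without library 4 they were above 0 for 3 and below 0 for 6, with a median of -0.03. Between the mutants, 2 members (*Calb2* and *Nr4a2*) passed, both higher in *Fzd3* mutants, where 29.6% of all genes passed, 15.3% higher and 14.3% lower. The median of the members was 0.28 there against -0.0047 over all genes, and 5 members had an unadjusted p under 0.05, as did 40.9% of all genes. The same 2 passed without *Celsr3* mutant library 4, with a median of 0.19, and 4 members and 35.2% of all genes then had an unadjusted p under 0.05. The comparisons share libraries, so their estimates are not independent of each other. The number of members passing was 2 in *Fzd3* mutants against controls without *Fzd3* mutant library 1 (*Calb2* and *Nr4a2*) and without *Fzd3* mutant library 2 (*Trp73* and *Nr4a2*), and 4 between the mutants without *Fzd3* mutant library 2.

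**Figure D2:**
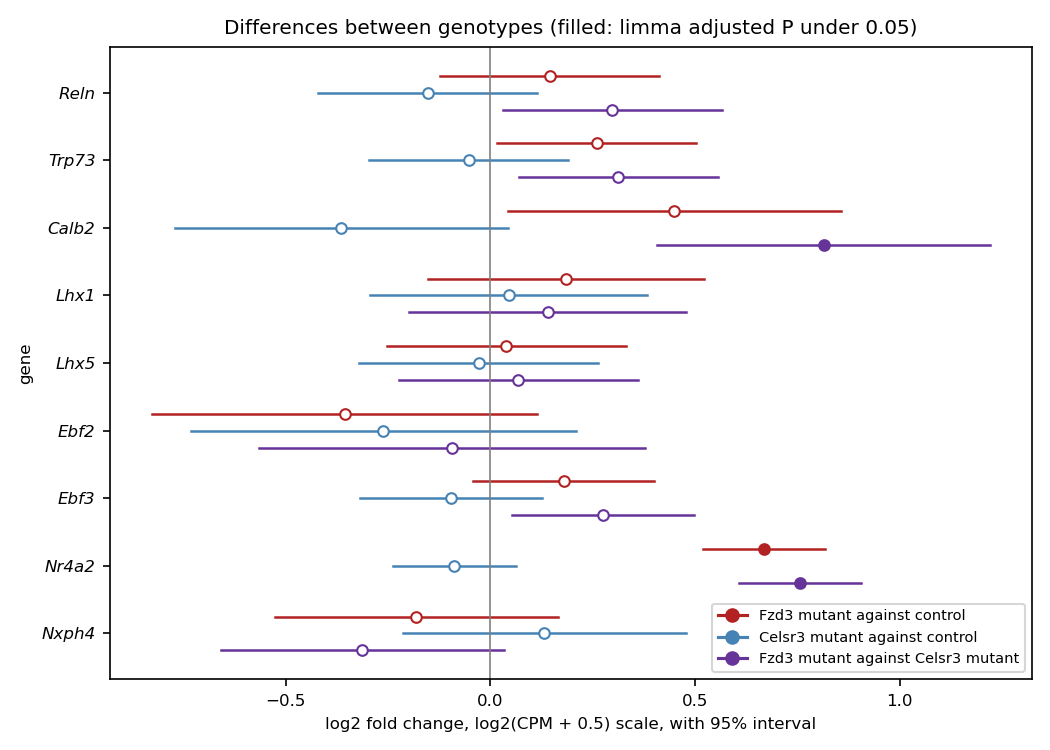
Log2 fold change on the log2(CPM + 0.5) scale (x axis) with its 95% interval for each listed gene (y axis) in the 3 comparisons, filled where the limma adjusted p was under 0.05. The filled points are *Nr4a2* in *Fzd3* mutants against controls (0.67) and against *Celsr3* mutants (0.76), and *Calb2* between the mutants (0.81).

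The members were also set against the control mean library by library. In *Fzd3* mutant library 3, log2(CPM + 0.5) was above the control mean by 0.44 for *Reln*, 0.50 for *Trp73* and 0.82 for *Calb2*. In *Fzd3* mutant library 2 these genes differed from it by -0.10, 0.03 and 0.55, and *Ebf2* by -0.87. *Celsr3* mutant library 4, the library with the high meninges markers, was at -0.37 for *Reln*, -0.57 for *Calb2*, -0.21 for *Lhx5* and -0.24 for *Nr4a2*, and at 0.33 for *Nxph4*. The summed CPM of the 7 Cajal-Retzius members, of which *Reln* made up 91.2 to 93.2%, was 500, 541 and 513 in controls, 555, 489 and 703 in the *Fzd3* mutants and 495, 507 and 404 in the *Celsr3* mutants. The part of the meninges in the low values of library 4 was not tested.

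**Figure D3:**
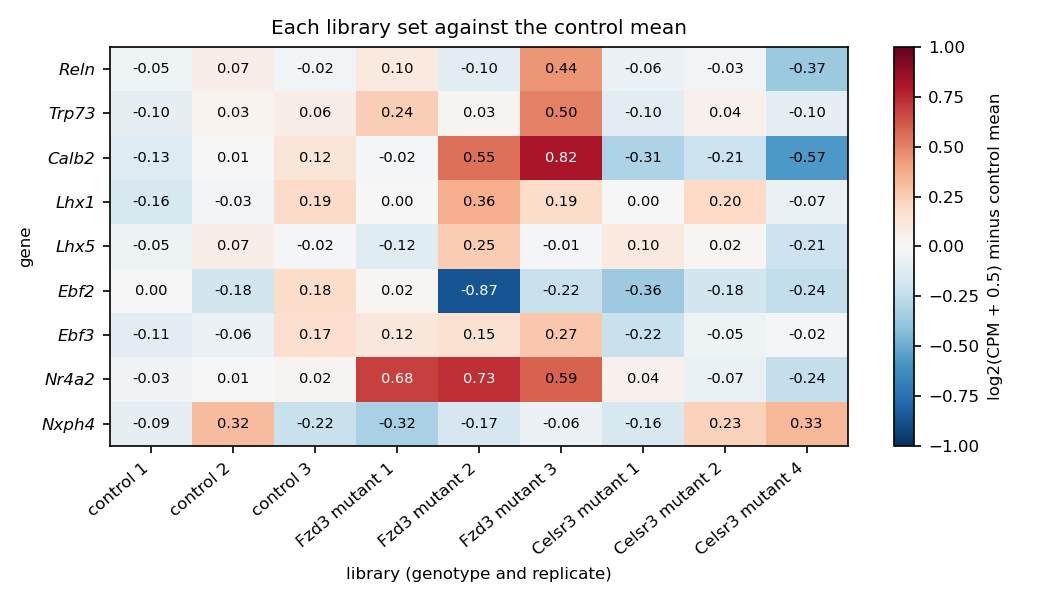
Difference of log2(CPM + 0.5) from the control mean for each listed gene (rows) in each of the 9 libraries (columns), with colour from -1 to 1 on the log2 scale. *Nr4a2* is raised in each *Fzd3* mutant library (0.59 to 0.73), whereas *Reln* stands out in *Fzd3* mutant library 3 (0.44) and *Celsr3* mutant library 4 (-0.37).

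The genes with the pattern most like each member were found by Pearson's r of log2(CPM + 0.5) over the 9 libraries, which share genotype and depth, and r is given as a description. *Gm10475* (r = 0.97) came first for *Reln* and is one of the genes annotated on its opposite strand, followed by *Ppp1r9a* (0.94). *Trp73* was most like *Tbck* (0.95) and *Gpr155* (0.93). For *Calb2* they were *4930441O14Rik* (0.95) and *4930563E22Rik* (0.95). *Lhx1* was less close to any gene than the other members, with *Gm10146* (0.88) and *Gm8775* (0.88) at the top and 0 genes over 0.9. *Lhx5* was closest to *Fuz* (0.93) and *Kctd1* (0.92), *Ebf2* to *Agbl4* (0.97) and *Gm17201* (0.93), and *Ebf3* to *Slc6a16* (0.97) and *AA414768* (0.96). For *Nr4a2*, 931 genes had an r over 0.9, and *Agtpbp1* and *Cyp46a1* (both 0.99) were first. *Nxph4* was most like *Fbxl22* (0.96) and *Glis2* (0.96), with 28 genes over 0.9. The r within genotypes, after the mean of each genotype was removed, was 0.967 for *Reln* and *Gm10475* and 0.890 for *Nr4a2* and *Agtpbp1*.

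Other genes known from Cajal-Retzius cells moved in both directions in *Fzd3* mutants. Of 15 such genes 14 are listed (*Barhl2* has no row), and 4 rose (*Clstn2*, *Cacna2d2*, *Ndnf* and *Cxcr4*) and 4 fell (*Eomes*, *Tbr1*, *Ebf1* and *Lhx9*), with a median log2 fold change of 0.18. Over all genes 15.0% rose and 14.8% fell, with a median of -0.00056. *Cacna2d2*, a calcium channel subunit, was at 36.5, 33.1 and 34.3 CPM in controls, 59.5, 54.1 and 54.5 in the *Fzd3* mutants and 33.0, 33.4 and 28.6 in the *Celsr3* mutants. It rose in *Fzd3* mutants by a log2 fold change of 0.69 against controls (limma adjusted p = 7.9e-05). *Ndnf*, a secreted factor, had means of 17.1 ± 0.382, 27.4 ± 3.70 and 16.2 ± 1.43 CPM (s.d., n = 3 each), with every *Fzd3* mutant library above all others (0.65, limma adjusted p = 0.000612). *Clstn2*, a calsyntenin, was at 114, 115 and 102 CPM in controls, 183, 171 and 194 in the *Fzd3* mutants and 160, 172 and 155 in the *Celsr3* mutants. It was the 1 gene of these lists that passed in *Celsr3* mutants against controls (0.55, limma adjusted p = 0.00141, and 0.58 without library 4), where 0.307% of all genes passed, and it rose in *Fzd3* mutants by 0.73 (limma adjusted p = 2.3e-05). *Eomes* and *Tbr1*, transcription factors that also mark intermediate progenitors and deep layer neurons of the whole cortex, fell by 0.67 and 0.27 on the log2 scale in *Fzd3* mutants (limma adjusted p = 0.000764 and 0.00345). Between the mutants 3 of the 14 were higher and 3 lower in *Fzd3* mutants, where 15.3% of all genes were higher and 14.3% lower. The counts were the same without *Celsr3* mutant library 4, where 21.4% of all genes passed. With 1 library left out, 3 to 4 rose and 2 to 4 fell against controls. *Cxcr4* did not pass without *Fzd3* mutant library 1 or 2 or any 1 control library, *Ebf1* without any 1 *Fzd3* mutant library or control library 2 or 3, and *Lhx9* without *Fzd3* mutant library 2 or 3 or control library 3 (limma adjusted p up to 0.0867, 0.0934 and 0.0699).

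Of 20 other subplate genes 19 are listed (*Htr1d* has no row). In *Fzd3* mutants 6 rose (*Gabra5*, *Unc5c*, *Ctgf*, *Pappa2*, *Cdh10* and *Kcnab1*) and 4 fell (*Lpar1*, *Ngfr*, *Sox5* and *Zfpm2*), with a median of 0.03, where 29.8% of all genes passed in either direction. *Gabra5*, a GABA receptor subunit, was at 12.6, 10.9 and 12.9 CPM in controls, 29.9, 27.1 and 23.2 in the *Fzd3* mutants and 14.7, 8.84 and 11.3 in the *Celsr3* mutants. Its log2 fold change in *Fzd3* mutants was 1.10 (limma adjusted p = 0.000505), and that of *Unc5c*, a netrin receptor, was 0.99 (limma adjusted p = 0.000343). *Lpar1*, a lysophosphatidic acid receptor, had means of 16.9 ± 1.96, 9.25 ± 1.07 and 17.2 ± 2.14 CPM (s.d., n = 3 each), and *Sox5*, the most abundant gene of the list, had means of 354, 245 and 364 CPM. Both fell in *Fzd3* mutants, by 0.84 and 0.52 on the log2 scale (limma adjusted p = 0.000524 and 0.0044). Limma called 0 of the 19 in *Celsr3* mutants against controls, with 0 at an unadjusted p under 0.05 (0.307% and 5.45% of all genes), and the same without library 4. Between the mutants 6 were higher and 3 lower in *Fzd3* mutants, and 4 and 2 without *Celsr3* mutant library 4. Of all genes 29.6% and 21.4% passed in these fits. With 1 library left out, 4 to 6 rose and 2 to 5 fell against controls. *Cdh10* did not pass without *Fzd3* mutant library 1 or control library 2, *Ngfr* without *Fzd3* mutant library 1 or 2 or control library 2, *Zfpm2* without *Fzd3* mutant library 1 or 2 or control library 1 or 2, and *Kcnab1* without *Fzd3* mutant library 1 or 3 or any 1 control library (limma adjusted p up to 0.0516, 0.073, 0.186 and 0.125).

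**Figure D4:**
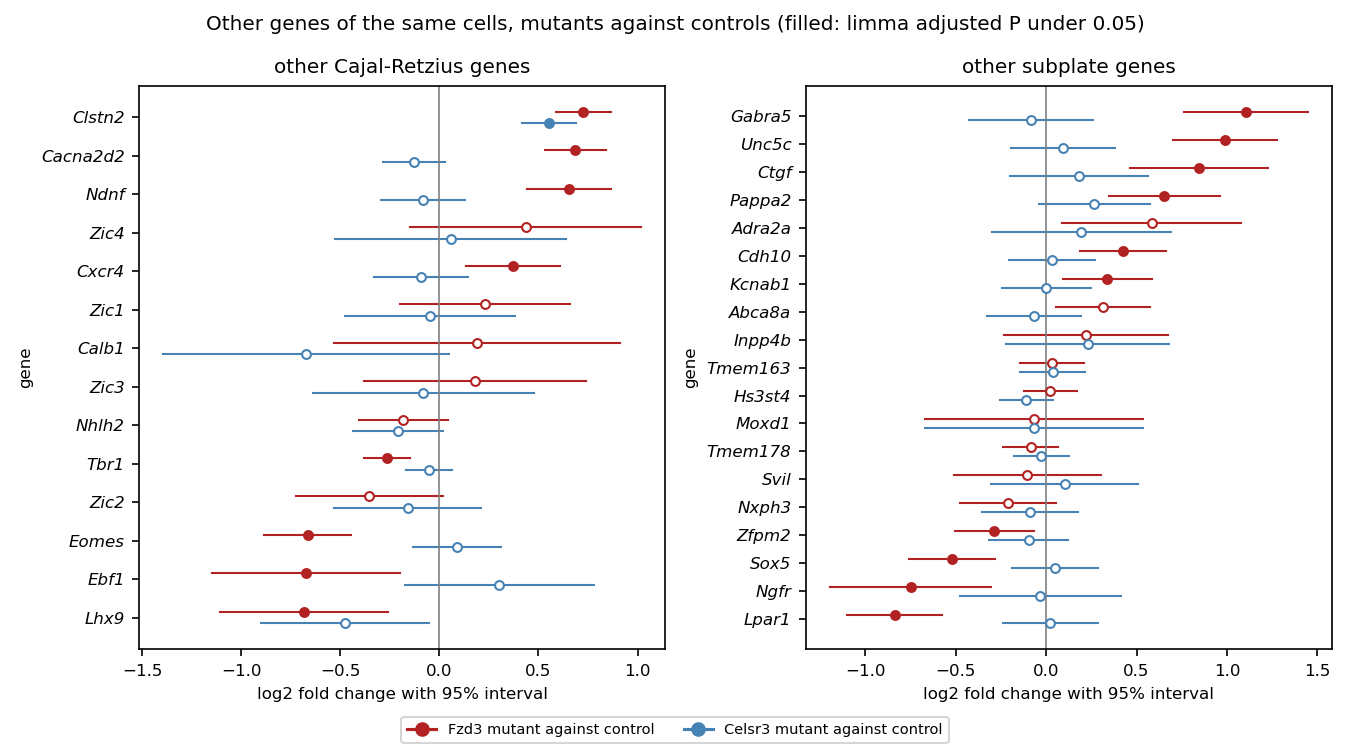
Log2 fold change with its 95% interval (x axis) of the other listed Cajal-Retzius genes (left) and subplate genes (right) in each mutant against controls, filled where the limma adjusted p was under 0.05. Filled points lie on both sides of 0 in *Fzd3* mutants, from *Gabra5* at 1.10 to *Lpar1* at -0.84, and *Clstn2* at 0.55 is the 1 filled point of the *Celsr3* mutants.

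The receptors and downstream proteins of Reelin were examined with *Reln*, and all 24 genes of that list are listed. In *Fzd3* mutants 6 rose (*Pik3r1*, *Vldlr*, *Rap1b*, *Adamts2*, *Thbs1* and *Cdk5r2*) and 5 fell (*Adamts3*, *Adamts4*, *Cdh2*, *Src* and *Crkl*), with a median of 0.02, so 45.8% of the list passed and 29.8% of all genes. *Vldlr*, a Reelin receptor, was at 90.8, 89.3 and 91.6 CPM in controls, 107, 106 and 115 in the *Fzd3* mutants and 92.9, 95.9 and 84.5 in the *Celsr3* mutants. It rose in *Fzd3* mutants by a log2 fold change of 0.26 (limma adjusted p = 0.00384). *Pik3r1*, a regulatory subunit of phosphoinositide 3-kinase, rose by 0.61. *Adamts3* and *Adamts4*, proteases of a family that cleaves Reelin, fell by 0.44 and 0.96 on the log2 scale (limma adjusted p = 0.000567 and 0.00306). The other receptor gene, *Lrp8*, and the adaptor gene *Dab1*, named after their values were seen, had log2 fold changes of 0.10 and -0.10 (limma adjusted p = 0.14 and 0.132). In *Celsr3* mutants limma called 0 of the 24, with 2 at an unadjusted p under 0.05 (5.45% of all genes), also without library 4. Between the mutants 6 were higher and 6 lower in *Fzd3* mutants, and 4 and 3 without *Celsr3* mutant library 4, where 29.6% and 21.4% of all genes passed. With 1 library left out, 4 to 7 rose and 4 to 6 fell against controls. *Rap1b* and *Cdk5r2* did not pass without *Fzd3* mutant library 1, and *Cdh2* did not without *Fzd3* mutant library 1 or 2 or control library 1 or 2 (limma adjusted p up to 0.0519, 0.0504 and 0.0813).

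Among relatives of the members in their gene families, 14 of 16 are listed (*Trp63* and *Cplx4* have no row), and 2 rose (*Nr4a3* and *Nxph2*) and 4 fell (*Trp53*, *Lhx2*, *Lhx9* and *Ebf1*) in *Fzd3* mutants, with a median log2 fold change of 0.12. These are 42.9% of the list, against 29.8% of all genes. *Nxph2*, a neurexophilin like *Nxph4*, was at 8.19, 6.35 and 6.85 CPM in controls, 10.9, 10.6 and 12.5 in the *Fzd3* mutants and 7.18, 7.64 and 6.71 in the *Celsr3* mutants. Its log2 fold change in *Fzd3* mutants was 0.64 (limma adjusted p = 0.00158). *Cplx2*, a complexin like the unlisted *Cplx3* and the most abundant of these relatives, had means of 177 ± 16.5, 196 ± 12.0 and 164 ± 10.7 CPM (s.d., n = 3 each), and its log2 fold change in *Fzd3* mutants was 0.15 (limma adjusted p = 0.132). Limma called 0 of the 14 in *Celsr3* mutants against controls, with 2 at an unadjusted p under 0.05 (5.45% of all genes), and 0 and 1 without library 4. With 1 library left out, 2 to 3 rose and 1 to 3 fell in *Fzd3* mutants. *Trp53* did not pass without *Fzd3* mutant library 1 or control library 2, and *Lhx2* did not without any 1 *Fzd3* mutant library or control library 1 or 2 (limma adjusted p up to 0.0664 and 0.0933).

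Markers of the tissue and of neighbouring cell types were set beside the members. Some genes belong to several lists and are counted in each. Among them are *Prox1* (GABAergic, hippocampus and thalamic), *Tbr1* and *Eomes* (other Cajal-Retzius and cortex), and *Lhx9* (other Cajal-Retzius, relatives and thalamic). Of all genes 15.0% rose and 14.8% fell in *Fzd3* mutants against controls. All 12 cortex markers are listed, led by *Neurod6*, and 11 fell in *Fzd3* mutants. GABAergic markers in *Fzd3* mutants against controls had 3 higher (*Npy*, *Maf* and *Prox1*) and 1 lower (*Sp9*) of 17. Hippocampus markers, led by *Zbtb20*, had 4 of 8 higher (*Prox1*, *Grik4*, *Man1a* and *Lmo4*), while the estimates of the other 4 were below 0 and did not pass (*Lef1* -0.42, *Zbtb20* -0.20, *Zfhx3* -0.18 and *Nrp2* -0.08). *Lmo4* went from a mean of 63.1 to 107 CPM and *Zbtb20* from 96.6 to 84.4. The hippocampal sum was 239, 240 and 279 CPM in controls, 308, 297 and 284 in the *Fzd3* mutants and 233, 238 and 211 in the *Celsr3* mutants. Endothelial markers, led by *Slc2a1*, had 3 of 10 higher (*Flt1*, *Kdr* and *Cldn5*; median log2 fold change 0.40), with sums of 165, 168 and 168 CPM in controls, 231, 219 and 195 in the *Fzd3* mutants and 176, 162 and 222 in the *Celsr3* mutants. The sums of hippocampus, endothelial, meninges and striatal markers and the level of *Nr4a2* were each higher in every *Fzd3* mutant library than in every control library. The cortex sum was lower in each, and the GABAergic, thalamic, hem, red blood cell and immediate early sums overlapped with controls. The hippocampal sum had means of 253 and 296 CPM in controls and *Fzd3* mutants, and *Lmo4* alone had 63.1 and 107. Of the striatal markers only *Foxp1* passed, and of the 8 listed meninges markers 0 passed. The part of these lists in the rise of *Nr4a2* was not tested. With 1 library left out, 9 to 12 cortex markers fell, and the counts of higher markers were 3 to 4 for GABAergic, 4 for hippocampus and 3 to 4 for endothelial markers. Up to 2 hippocampus markers were lower, *Lef1* without *Fzd3* mutant library 3 or control library 3 (limma adjusted p = 0.045 and 0.0163) and *Zbtb20* without *Fzd3* mutant library 3 (0.0383). *Sp9* did not pass without any 1 *Fzd3* mutant library or control library 2 or 3, *Emx2* without *Fzd3* mutant library 1 or 2 or control library 2, and *Neurod2* without *Fzd3* mutant library 1 or 3 or control library 1 or 2 (limma adjusted p up to 0.147, 0.111 and 0.133).

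The cortical hem is a source of Cajal-Retzius cells. Of 14 markers of the hem and choroid plexus 3 are listed, led by *Rspo3*, and defining genes such as *Ttr*, *Lmx1a*, *Wnt3a* and *Wnt8b* have no row. *Rspo2* rose in *Fzd3* mutants (log2 fold change 1.64). *Rspo3* had -0.36 (limma adjusted p = 0.0504) and passed without *Fzd3* mutant library 3, without control library 3 and in a fit of the 2 genotypes alone (0.0167 to 0.0361). The sum of the 3 was 33.1, 32.9 and 27.6 CPM in controls, 32.7, 30.1 and 35.0 in the *Fzd3* mutants and 33.0, 43.1 and 37.4 in the *Celsr3* mutants. Of 14 thalamic markers 5 are listed, led by *Slc17a6*, without rows for *Gbx2*, *Pou4f1*, *Olig3* and others, and 1 rose (*Prox1*) and 2 fell (*Tcf7l2* and *Lhx9*) in *Fzd3* mutants, with sums between 61.4 and 71.4 CPM in the 9 libraries. Of 12 striatal markers 5 are listed, led by *Foxp1*, without rows for *Isl1*, *Drd1*, *Drd2*, *Six3*, *Penk*, *Tac1* and *Ikzf1*. *Foxp1* rose in *Fzd3* mutants (0.52, from 88.0 to 126 CPM), whereas *Ppp1r1b*, *Foxp2*, *Rarb* and *Adora2a* had log2 fold changes of -0.17, 0.03, 0.02 and 0.10. The striatal sum was 161, 160 and 148 CPM in controls, 196, 190 and 191 in the *Fzd3* mutants and 167, 156 and 154 in the *Celsr3* mutants. Red blood cell markers (8 of 9 listed, led by *Hba-a1*) had 1 lower in *Fzd3* mutants (*Hbb-y*), with sums between 1570 and 2539 CPM in the 9 libraries, and immediate early genes (9 of 14 listed, led by *Nr4a3*) had 2 higher (*Egr1* and *Nr4a3*) and 3 lower (*Btg2*, *Ier2* and *Arc*). Limma called 0 of the 8 listed meninges markers in any of the 3 comparisons, with 1 at an unadjusted p under 0.05 in each. *Igf2* (log2 fold change 0.32 in *Fzd3* mutants against controls, limma adjusted p = 0.465) passed with the replicate number as a block (0.026) and in a fit of the 2 genotypes alone (0.0177). The median log2 fold change of the 8 in *Celsr3* mutants against controls was 1.02, and 0.06 without library 4. Between the mutants 1 passed, higher in *Fzd3* mutants, without that library, where 21.4% of all genes passed. *Tcf7l2* did not pass without *Fzd3* mutant library 1 or 2 or control library 1 or 2, *Hbb-y* without any 1 *Fzd3* mutant library or control library 1 or 2, and *Arc* without any 1 of the 6 libraries (limma adjusted p up to 0.158, 0.127 and 0.14). In *Celsr3* mutants against controls limma called 0 genes of the marker lists of the tissue, of other cell types and of immediate early genes. At an unadjusted p under 0.05, where 5.45% of all genes lay, there were 4 of 17 GABAergic, 4 of 9 immediate early and 2 of 12 cortex markers, 0 striatal and red blood cell markers, and 1 gene of each remaining list. Without library 4 limma again called 0, and at an unadjusted p under 0.05 (4.87% of all genes) there were 4 immediate early, 2 GABAergic, 2 cortex, 1 hem and 1 meninges genes.

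**Figure D5:**
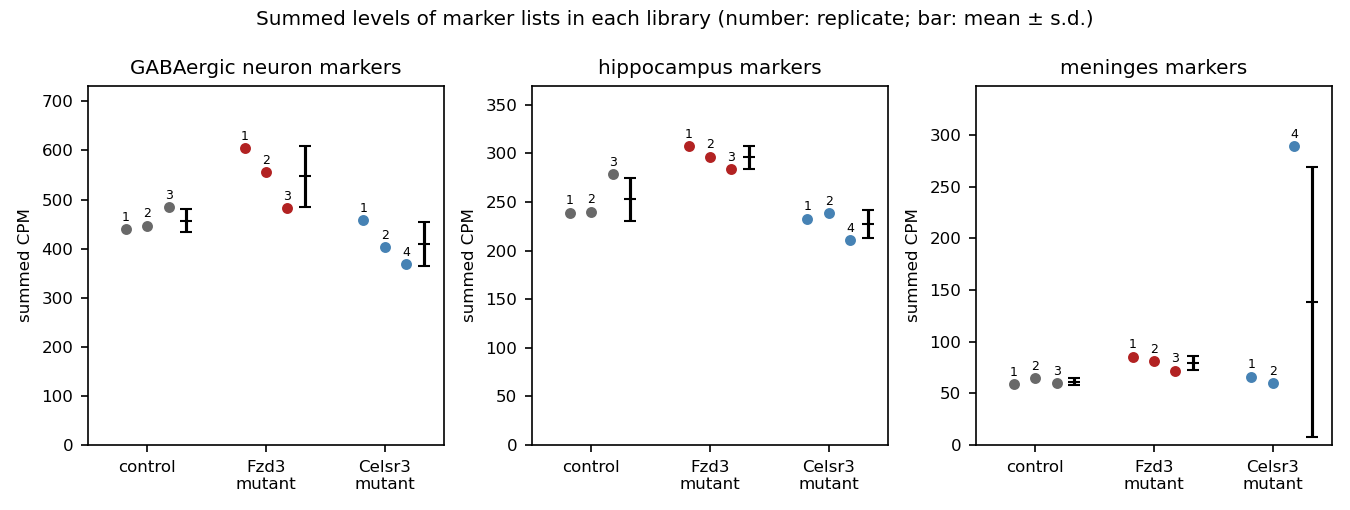
Summed CPM (y axis) of GABAergic neuron, hippocampus and meninges markers by genotype (x axis), with 1 numbered point per library and a bar for the mean ± s.d. of 3 libraries. *Celsr3* mutant library 4 stands at 290 CPM for meninges markers and the other libraries between 59.0 and 85.4 CPM.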

How the data were processed

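The authors deposited 1 table of CPM values for 14670 genes in 9 libraries of E16.5 cortex, each gene with an identifier and a symbol. The submitters' processing notes name FastQC, TopHat, TopHat2, Bowtie, Cufflinks 2.1.1 and edgeR 2.12 and the builds GRCm38 and GRCh37, with no role or order. The annotation and the use of strand are not given in the sources used here. The lowest mean of a listed gene was 0.540 CPM, so genes of low expression are absent from the table. RNA was extracted with an RNeasy kit according to the methods and with Trizol according to the labels.

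Genotypes and library numbers were taken from the labels. Genotypes were compared with limma 3.58.1 under R 4.3.3 on log2(CPM + 0.5), with a variance trend, all 9 libraries in 1 fit, no block and no filter, two-sided, with Benjamini-Hochberg adjustment over all genes and a threshold of 0.05. A count test was not used, because the values are CPM and the files do not state that a step is 1 read. The fit was tested on simulated data in which 200 genes changed 2-fold in *Fzd3* mutants. It recovered 199 of them against controls, with 16 false calls, and 200 between the mutants, with 5 false calls. In *Celsr3* mutants against controls, where 0 genes were changed, there were 0 false calls. The recovery of changes smaller than 2-fold was not tested, and the estimates of all listed members were smaller than that. Tables and figures were made with pandas 2.3.3, numpy 2.4.6 and matplotlib 3.10.9 under Python 3.11.15. Exon lengths (union of exons), positions and opposite-strand overlaps are from GENCODE annotation of GRCm38, and promoters from RefSeq.

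The members and lists were chosen with earlier results of these data known. Lists are described by counts, and some by medians, beside the share of all genes. Results for 3 marker genes, 1 each of the cortex, GABAergic and striatal lists, are not reported here, and the counts and sums of these lists are without them. The genes named were all members, *Fzd3* and *Celsr3*, of each other list the most abundant gene and up to 4 genes past the threshold with the smallest adjusted p, and for each member the 2 genes with the highest correlation. Genes named only in counts of calls, absent genes, *Col3a1*, *Nr4a1*, *Lrp8*, *Dab1*, *Nrp2*, *Zfhx3*, *Ppp1r1b*, *Foxp2*, *Rarb* and *Adora2a* lie outside this rule or were singled out after values were seen. Alternatives covered pseudocounts of 0.1 and 1 CPM, a filter at 1 CPM, median-ratio scaling, scaling of each library to the same sum, the 2 genotypes alone, a replicate block, no variance trend and leaving out each library. The qRT-PCR, immunostaining, in situ hybridization and culture experiments were not analysed here.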

Additional observations from a re-analysis of the deposited data

Results flagged for a closer look

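The following genes differed between the 2 mutants when *Fzd3* mutants were compared directly with *Celsr3* mutants (limma, adjusted over all genes, threshold 0.05). The test picked out 2 of the 9 listed members, where 29.6% of all genes passed. Most of the other genes below were named because they passed in at least 1 comparison, so their number is set by that choice. All values are log2 fold changes, positive where *Fzd3* mutants were higher. Among the members they were 0.81 for *Calb2* and 0.76 for *Nr4a2*.

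Among other Cajal-Retzius genes the values were 0.81 for *Cacna2d2*, 0.74 for *Ndnf*, -0.76 for *Eomes* and -0.22 for *Tbr1*, and among other subplate genes 1.19 for *Gabra5*, 0.90 for *Unc5c*, -0.86 for *Lpar1* and -0.57 for *Sox5*. In the Reelin pathway they were 0.47 for *Pik3r1*, 0.26 for *Vldlr*, -0.13 for *Cdh2*, -0.50 for *Adamts3* and -0.96 for *Adamts4*. Relatives of the members stood at 0.56 for *Nr4a3*, 0.62 for *Nxph2*, 0.26 for *Cplx2*, -0.98 for *Ebf1* and -0.28 for *Lhx2*.

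Cortex markers stood at -0.28 for *Neurod6*, -0.93 for *Neurog2*, -0.64 for *Pax6* and -0.24 for *Bcl11b*. GABAergic markers stood at 1.53 for *Npy*, 1.00 for *Prox1*, 0.56 for *Maf* and 0.54 for *Gad1*, and the striatal marker *Foxp1* at 0.52. The values for *Rspo3* and *Rspo2* were -0.61 and 1.22. Hippocampus markers *Grik4*, *Lmo4*, *Man1a* and *Lef1* had 1.09, 0.90, 0.56 and -0.49, and endothelial markers *Flt1* and *Kdr* had 0.81 and 0.43. Immediate early genes *Btg2*, *Ier2* and *Egr1* had -0.82, -0.66 and 0.97.

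Single libraries decided some of these calls. The adjusted p was over 0.05 for *Cdh2* without any 1 of the 6 mutant libraries (0.0608 to 0.152), and for *Cplx2* and *Lef1* without *Fzd3* mutant library 1 or 2 or *Celsr3* mutant library 2 or 4 (0.0617 to 0.12). It was over 0.05 for *Kdr* without *Fzd3* mutant library 1 or 2 or *Celsr3* mutant library 2 (0.0637 to 0.0831), and for *Bcl11b* without *Fzd3* mutant library 2 or *Celsr3* mutant library 2 (0.0549 and 0.0554). For *Gad1* it was over 0.05 without *Fzd3* mutant library 1 or *Celsr3* mutant library 2 or 4 (0.0511 to 0.0673). Without *Celsr3* mutant library 4 all 40 genes kept their sign and 36 passed, and the log2 fold changes moved by at most 0.19 (*Rspo2*). With the replicate number as a block the adjusted p was over 0.05 for *Vldlr* (0.0673), *Bcl11b* (0.0709), *Tbr1* (0.0771), *Gad1* (0.0781), *Cplx2* (0.136), *Cdh2* (0.174) and *Lef1* (0.225).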

How the results depend on the processing

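Each of 122 results was recomputed under the alternatives, 1708 values in all, of which 1606 kept their direction and their side of the threshold, 62 lost the threshold, 19 gained it, 15 changed sign and 6 counts moved by over 1.5 times. No member call was lost in any alternative, and *Nr4a2* and *Calb2* kept theirs. The number of members called in *Fzd3* mutants against controls was 1 to 2 with 1 library left out, and 2 to 4 between the mutants. Over all genes these ranges were 2960 to 4279 and 2973 to 4274, and 39 to 47 in *Celsr3* mutants against controls. With a library left out, the log2 fold change in *Fzd3* mutants against controls ranged from -0.0028 to 0.27 for *Reln*, -0.0664 to 0.121 for *Lhx5* and -0.145 to 0.0428 for *Dlx1*. In *Celsr3* mutants it ranged from -0.0369 to 0.14 for *Lhx1* and -0.0927 to 0.0598 for *Lhx5*, and between the mutants from -0.0374 to 0.15 for *Lhx5* and -0.283 to 0.161 for *Ebf2*. The cause was not tested. Without division by exon length the control ranks of *Nxph4*, *Calb2*, *Trp73*, *Lhx5* and *Ebf3* moved from 3, 4, 5, 6 and 7 to 4, 6, 3, 7 and 5. The lowest value of a member was 0.713 CPM (*Ebf2*), above the level of 3 reads in every library.

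With the replicate number as a block, 2 members were called in *Fzd3* mutants against controls, and over all genes 3629, 29 and 2101 were called in place of 4366, 45 and 4346 (*Fzd3* mutants against controls, *Celsr3* mutants against controls, and between the mutants). *Celsr3* mutant library 4 has no library of the same number in the other groups. The second call in *Fzd3* mutants was *Calb2*, and the block changed no other member call. Of the other genes *Ebf1* and *Tcf7l2* lost the threshold under it in *Fzd3* mutants against controls (0.0549 and 0.0572), and *Igf2* gained it (0.026). Without 1 library *Cplx2* (control library 3, 0.0231), *Slc17a6* (control library 2, 0.0462) and *Slc2a1* (*Fzd3* mutant library 3, 0.0264) also passed in that comparison. With the replicate number as a block the sign changed in *Celsr3* mutants against controls for *Reln* (0.0244), *Trp73* (0.0479) and *Lhx5* (0.0431), and between the mutants for *Lhx5* (-0.0040). No source states whether equal numbers mark paired samples, and the correlations below, from 3 libraries per group, cannot settle it. Deviations from the group mean of same-numbered control and *Fzd3* mutant libraries had correlations across genes of -0.0696, -0.154 and -0.199, and those of *Celsr3* mutants were 0.192 and -0.0799 with *Fzd3* mutants and 0.0728 and -0.0132 with controls.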
